A study of Mus musculus with 4 samples.

Results

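The *Col3a1* and *Col5a2* collagen locus was taken as all chromatin accessibility peaks from 100 kb outside this gene pair on one side to 100 kb outside it on the other. These bounds enclosed 391.7 kb of mouse chromosome 1 (chr1:45211538-45603282, mm10) and were set from GENCODE vM21 gene ends, not from peak values. Of the 64360 peaks in the 4 lists together, 13 lay in this window, and they merged into 11 separate regions. There were 2 window peaks in the control female list, 11 in the VEDS male list, and 0 in the control male and VEDS female lists. The outermost window peaks began at chr1:45299586 and ended at chr1:45532122, both in the VEDS male list. The nearest peaks outside the window ended at chr1:45184946 and began at chr1:45608321 in that list, and ended at chr1:45184935 and began at chr1:45627917 in the control female list.

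*Col3a1* encodes the chain of type III collagen, a homotrimer, and *Col5a2* encodes a chain of type V collagen. Both are fibrillar collagens, secreted as procollagens and assembled into banded fibrils. Type III collagen gives tensile strength to the wall of arteries and hollow organs, and type V collagen helps to nucleate fibrils and to limit their diameter. Heterozygous *COL3A1* variants that replace a glycine of the triple helix cause vascular Ehlers-Danlos syndrome (VEDS), in which arteries rupture. ATAC-seq marks open chromatin with the transposase Tn5, which cuts and tags DNA that is not wrapped or covered, so that promoters and enhancers in use appear as peaks of reads.

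Accessibility was measured in aortic nuclei of untreated mice at P60 (60 days of age). The control group was *Col3a1*+/+ and the VEDS group *Col3a1*G938D/+, heterozygous for a glycine substitution in type III collagen, each with 1 female and 1 male library. Every library pooled the tissue of 2 mice and was made with a single-cell ATAC kit but listed in aggregate, so that the 2 libraries of a genotype also differed in sex and cell types were not separated. An exact permutation test of 2 libraries against 2 cannot pass a threshold of 0.05, and genotypes were therefore compared without one.

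The lists differed widely in length, at 21176 peaks for control female, 504 for VEDS female, 1236 for control male and 41444 for VEDS male. The median number of reads stacked at a summit (the pileup) was 14, 6, 7 and 22 in the same order. The genome-wide background of the VEDS male list was 2.76 times that of the control female list, and this ratio was used to bring pileups of the one to the depth of the other. A promoter peak (within 3000 bp of a coding TSS) was found at 4 of 4 VSMC genes (*Myh11*, *Acta2*, *Tagln*, *Cnn1*) in both the control female and VEDS male lists. At fibroblast genes it was found at 2 of 4 in both lists (*Pdgfra*, *Col1a2*, but not *Dcn* or *Lum*). Endothelial genes had 0 of 3 in control female and 1 of 3 in VEDS male (*Tie1*). The defining immune genes *Ptprc* and *Cd68* had 0 of 2 in both. Adipocyte genes had 0 of 2 and 1 of 2 (*Plin1*), and striated muscle genes 0 of 3 and 1 of 3 (*Ckm*). The VEDS female and control male lists had no promoter peak at any of these genes, so the labelled tissue could not be checked in them. In pooled nuclei, more open cells of a type and a more open site per cell cannot be told apart.

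The sequences that the results turn on are given here from the GRCm38.p6 reference, 5′ to 3′ on the strand of the gene. They are the 250 bases before the *Col3a1* start (credited to RefSeq), which held no peak beyond their last base, the 3 peaks of the first *Col3a1* intron, and the 2 peaks outside the genes whose listed extent holds an AP-1 match. The *Col5a2* promoter and the exon peaks at both gene starts are described by position only. Capitals mark matches to the motifs named in the account of the motifs.
Col3a1 upstream, chr1:45311288-45311537, plus strand: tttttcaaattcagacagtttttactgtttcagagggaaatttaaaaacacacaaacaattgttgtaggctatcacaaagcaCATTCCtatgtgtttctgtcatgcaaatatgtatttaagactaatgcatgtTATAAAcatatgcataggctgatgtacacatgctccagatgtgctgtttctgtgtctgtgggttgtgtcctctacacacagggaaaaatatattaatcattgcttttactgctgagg
Col3a1 +1.51 kb, intron 1, chr1:45312941-45313104, plus strand: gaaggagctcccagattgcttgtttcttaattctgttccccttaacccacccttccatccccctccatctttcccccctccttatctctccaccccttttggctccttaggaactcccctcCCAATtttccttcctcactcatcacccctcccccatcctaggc
Col3a1 +2.59 kb, intron 1, chr1:45314024-45314171, plus strand: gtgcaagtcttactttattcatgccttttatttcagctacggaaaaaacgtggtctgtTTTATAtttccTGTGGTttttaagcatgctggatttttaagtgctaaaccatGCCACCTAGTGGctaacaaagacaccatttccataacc
Col3a1 +4.74 kb, intron 1, union of the control female and VEDS male peaks, chr1:45316093-45316366, plus strand: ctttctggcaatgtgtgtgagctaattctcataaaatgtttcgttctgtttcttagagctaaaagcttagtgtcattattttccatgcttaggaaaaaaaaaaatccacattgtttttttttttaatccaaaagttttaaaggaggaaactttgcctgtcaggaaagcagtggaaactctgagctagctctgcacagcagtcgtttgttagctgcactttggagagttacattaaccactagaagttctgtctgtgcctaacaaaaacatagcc
Between the genes, +47.89 kb from the Col3a1 start, chr1:45359331-45359491, plus strand: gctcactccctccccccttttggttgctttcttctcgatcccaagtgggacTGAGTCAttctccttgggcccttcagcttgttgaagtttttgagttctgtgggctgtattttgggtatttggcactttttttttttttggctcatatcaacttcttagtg
Upstream of Col5a2, -24.36 kb from its start, chr1:45527474-45527765, minus strand: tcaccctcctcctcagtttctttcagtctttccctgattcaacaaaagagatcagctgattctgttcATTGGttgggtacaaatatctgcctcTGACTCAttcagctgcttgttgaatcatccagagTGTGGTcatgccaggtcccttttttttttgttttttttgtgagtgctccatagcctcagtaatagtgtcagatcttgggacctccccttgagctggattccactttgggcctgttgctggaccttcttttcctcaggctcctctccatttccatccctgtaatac

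The 2 genes lie end to end and point toward each other. *Col3a1* (ENSMUSG00000026043.18) runs on the plus strand over chr1:45311538-45349706 with 51 exons, and *Col5a2* (ENSMUSG00000026042.16) runs on the minus strand over chr1:45374321-45503282 with 54 exons. Their 3′ ends are 24.6 kb apart, and together they span 191.7 kb. The other annotated genes of the window are *Gm47302*, a miRNA gene inside the first exon of *Col3a1*, *Gm38211*, a predicted transcript inside *Col5a2*, and the processed pseudogenes *Gm8296*, *Gm7063* and *Gm8304*. The nearest protein-coding genes beyond the pair are *Gulp1*, 514700 bp before it, and *Wdr75*, 291884 bp after it. No other protein-coding gene lies in the window.

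In the VEDS male list, the window peaks clustered in the first 5 kb of *Col3a1*, with single or scattered peaks elsewhere. Of the 11 VEDS male peaks, 4 lay between the *Col3a1* start and 5 kb into that gene, 1 lay upstream of *Col3a1*, 1 between the genes, 1 in an intron of *Col5a2*, 1 at the *Col5a2* start and 3 upstream of *Col5a2*. The 4 peaks in the first 5 kb were weak, 64.5% to 96.9% from the top of the list, with a -log10 q of 2.53 to 7.75. The 2 control female peaks lay in the first intron of *Col3a1* and at the *Col5a2* start, and both overlapped a VEDS male peak. VEDS male pileups ran from 8 to 33 with a median of 11, against a median of 22 over the whole list. Peak widths ran from 141 to 400 bp.

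**Figure D1:**
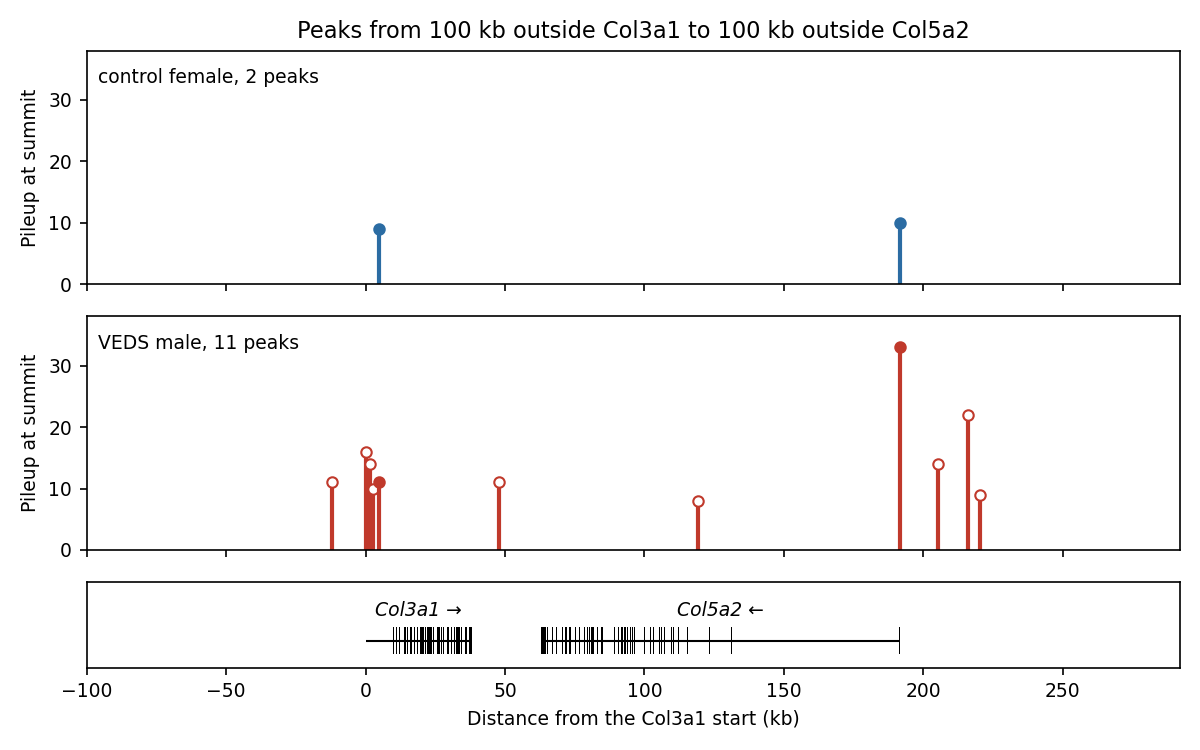
Peaks of the window by distance of the summit from the *Col3a1* start (x axis, kb) and pileup at the summit (y axis, reads), for control female and VEDS male, with exons of both genes as black bars below and arrows for direction. Filled points are the 2 regions found in both lists; the highest point is the *Col5a2* start in VEDS male, at 33. Pileups of the 2 panels were not scaled to the same depth.

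The *Col5a2* start was the strongest accessible site of the locus. In VEDS male its peak (chr1:45502887-45503278) had a pileup of 33, a fold enrichment of 13.1 over the local background and a -log10 q of 28.8. It ranked 8067 of 41444 by -log10 q, 19.5% from the top. In control female the peak (chr1:45502952-45503148) had a pileup of 10, a fold enrichment of 6.53 and a -log10 q of 6.51, and ranked 13524 of 21176, 63.9% from the top. The first is therefore in the upper part of its list and the second in the lower part. Both peaks lay in exon 1, with summits 129 and 180 bp downstream of the start. Of the 11215 coding gene starts with a VEDS male peak within 1000 bp, 48% had a lower ranking peak than *Col5a2*, and of the 9010 in control female 15.7% had.

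The *Col3a1* start carried a weaker peak, and only in VEDS male. This peak (chr1:45311537-45311688) had a pileup of 16, with an exact 95% Poisson interval of 9.15 to 26, a fold enrichment of 5.81 and a -log10 q of 7.75. It ranked 26751 of 41444, 64.5% from the top, and 8.58% of the VEDS male gene starts with a peak ranked lower. Brought to the depth of the control female library, its pileup would be 5.8 (3.32 to 9.43). The smallest pileup called in control female was 5, and 11.3% of its peaks had 7 or less, so that a start of this size lay at the limit of what that list could show. The lack of a *Col3a1* start peak in control female is thus not a measured difference between the libraries. These intervals cover counting error only.

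Both start peaks lay almost wholly downstream of the annotated start. The VEDS male peak at *Col3a1* reached 1 bp upstream, with its summit 83 bp into exon 1. That peak also overlapped the 5′ end of *Gm47302* on the same strand. The VEDS male peak at *Col5a2* began 4 bp inside the gene, and the control female peak lay farther inside. Among all gene starts with a peak, 12.1% in VEDS male and 12.7% in control female reached at most 1 bp upstream, and the summit lay downstream in 33.8% and 33.5%. The median start peak reached 230 bp upstream in VEDS male and 175 bp in control female.

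The *Col3a1* and *Col5a2* starts are poor in CpG. In the 1000 bp centred on the start, *Col3a1* had 39.7% GC, 7 CpG and an observed-over-expected CpG ratio of 0.18, and 20.1% of 21938 protein-coding genes had a lower ratio. *Col5a2* had 42.9% GC, 15 CpG and a ratio of 0.33, with 35.4% of genes lower, against a median of 0.55. Among genes with a CpG ratio within 0.05 of that of *Col3a1*, 7.19% of 3018 had a VEDS male peak within 1000 bp of the start and 3.64% a control female peak. For the 1600 genes like *Col5a2* these shares were 25.1% and 14.7%, against 51.1% and 41.1% of all genes. A called start peak was thus less common among genes with such CpG ratios than among all genes. Both collagen genes had one in VEDS male, and only *Col5a2* had one in control female.

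The first 5 kb of *Col3a1* held 4 separate VEDS male peaks. After the start peak, a peak at +1.51 kb (chr1:45312941-45313104) had a pileup of 14 and a -log10 q of 5.79. A peak at +2.59 kb (chr1:45314024-45314171) had a pileup of 10 and a -log10 q of 2.53, and ranked 96.9% from the top, the lowest of the window. The fourth, at +4.74 kb (chr1:45316167-45316366), had a pileup of 11 and a -log10 q of 3.46. All 3 lay in intron 1 of the main transcript, although the last overlaps an exon of a noncoding *Col3a1* transcript. Pileups of 10 to 16 have overlapping intervals (4.8 to 18.4 for the lowest and 9.15 to 26 for the highest), so that the 4 peaks cannot be ordered by height. Of 21938 protein-coding genes, 23 (0.105%) had as many or more VEDS male peaks in the 5 kb after the start, and *Col3a1* was the one fibrillar collagen gene among them. For genes shorter than 5 kb this span ran past the gene end. The 5 kb limit ends just past the fourth peak and was not varied. Over the whole gene, which held the same 4 peaks, 8.95% of genes had as many or more. With flanks of 100 kb *Col3a1* had 7 VEDS male peaks, and 48.2% of genes had as many or more. In control female 1 peak lay in the first 5 kb, as many as or more than in 97.2% of genes, and 39.9% had as many or more. The local background at these 4 VEDS male peaks was 1.93 to 2.08 reads, above the genome-wide value of 1.318.

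**Figure D2:**
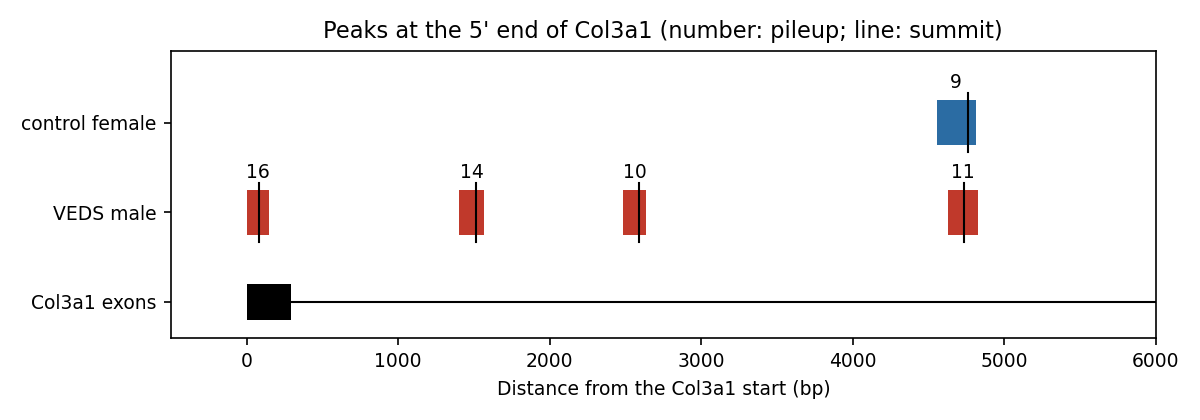
Extent of the peaks at the 5′ end of *Col3a1* (x axis, bp from the start), with 1 row for control female, 1 for VEDS male and 1 for the exons of the main transcript. Black lines mark summits and numbers are pileups, 16, 14, 10 and 11 in VEDS male and 9 in control female.

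The intronic site near +4.7 kb was the one *Col3a1* peak found in both long lists. In control female it spanned chr1:45316093-45316350 with a pileup of 9, a fold enrichment of 5.57 and a -log10 q of 4.84, 77.3% from the top. In VEDS male the pileup was 11. The summits were 22 bp apart, against a median of 36 bp over shared peaks. The ratio of VEDS male to control female pileup was 1.22, or 0.443 after scaling for depth (exact 95% interval 0.167 to 1.21). Over the 20081 shared peaks with recovered pileups the median scaled ratio was 0.896, and 1.3% had a lower ratio than this site. Peaks of control female pileup 9 had a median of 23 in VEDS male. The site was thus low in VEDS male for its height in control female. Taken from the other side, 166 shared peaks had a VEDS male pileup of 11. Their median in control female was 7, and 75.3% had less than the 9 of this site. The interval of the scaled ratio of the site includes 1, and each genotype and sex has 1 library.

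The *Col5a2* start had the opposite position among shared peaks. Its pileups of 10 and 33 gave a ratio of 3.3, or 1.2 after scaling (exact 95% interval 0.576 to 2.72), and 85.1% of shared peaks had a lower ratio. The median VEDS male pileup of peaks with 10 in control female was 25. The summits were 51 bp apart. The interval also includes 1, and genotype and sex cannot be told apart between these libraries.

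**Figure D3:**
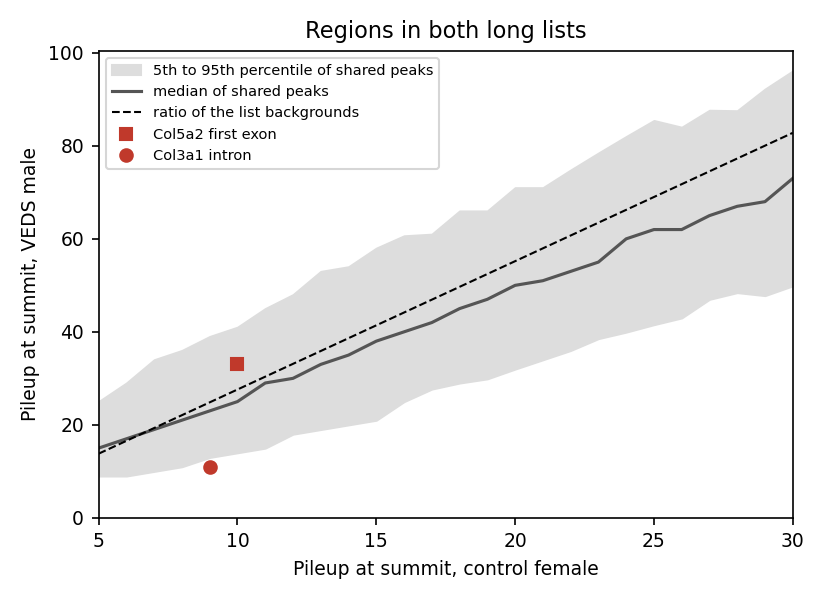
Pileup at the summit in VEDS male (y axis, reads) against control female (x axis, reads) for peaks in both lists, with the median and the 5th to 95th percentile at each control female pileup, and the ratio of the list backgrounds as a dashed line. The *Col3a1* intron (9 and 11) lies below the band, and the *Col5a2* first exon (10 and 33) inside it.

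Upstream of *Col5a2* there were 3 peaks in VEDS male and none in control female. The strongest, at -24.36 kb (chr1:45527474-45527765), had a pileup of 22, a fold enrichment of 9.81 and a -log10 q of 16.9, 35.7% from the top, second in the window to the *Col5a2* start. At -13.67 kb (chr1:45516908-45517087) the pileup was 14 and the -log10 q 8.08. This peak falls in the promoter category only through the start of the pseudogene *Gm8296*. At -28.69 kb (chr1:45531959-45532122) the pileup was 9 and the -log10 q 3.24. At the depth of control female these pileups would be 7.98, 5.08 and 3.26, where the smallest called in that list was 5. Among VEDS male peaks with the same pileup as the one at -24.36 kb, 40.5% of 1014 had a control female overlap.

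The remaining VEDS male peaks stood alone. One lay at -11.92 kb from the *Col3a1* start (chr1:45299586-45299985, pileup 11, -log10 q 5.15). One lay between the genes (chr1:45359331-45359491, pileup 11, -log10 q 4.43), nearer to the 3′ end of *Col3a1*. The only peak in the body of *Col5a2* away from its start was in intron 6 (chr1:45430603-45430743), with the lowest pileup of the window, 8, and a -log10 q of 2.57. The peaks at -24.36 kb and between the genes had 93.2% of their bases masked as repeats. Peaks over 50% masked were 5.1% of the VEDS male list. At each of the 13 window peaks the 50 bases around the summit occurred once in the reference, so that no summit lay in an exact repeat of that length. Inexact copies and the rest of each peak were not examined.

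Long stretches of the locus had no peak in any list. The last 33.3 kb of *Col3a1*, from the intron 1 peak to the gene end, held none. In VEDS male the longest gaps between neighbouring peaks were 114.6 kb before the window's first peak, 76.2 kb after the last, and 72.1 and 71.1 kb on either side of the intron 6 peak, against a median gap of 15.9 kb. In control female the gaps were 131.2, 186.6 and 124.8 kb, against a median of 32.4 kb. The codon of the glycine replaced in VEDS mice (residue 938 counted from the first methionine, GGT, chr1:45341019-45341021, exon 39 of 51) lay in a peakless stretch, 18.3 kb from the nearest peak. Peak density in the window was 0.511 per 100 kb in control female against 0.775 over the genome, and 2.81 against 1.52 in VEDS male. A count of 2 peaks stands beside 3.04 at genome density, and 11 beside 5.95. Both directions turned with the settings. The ratio of window to genome density in control female was 0.659, but 1.35 with no flanks and 1.53 with flanks of 200 kb. In VEDS male it was 1.85, but 0.616 at a -log10 q of at least 10 and 0.658 with the list at control female length.

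By annotation category, 5 of the 11 VEDS male peaks were in promoters (46.6% of the list), 1 in an exon (1.55%), 1 in an intron (27.9%) and 4 intergenic (22.5%). The 2 control female peaks were 1 promoter (56.6% of the list) and 1 exon (1.04%).

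Most window peaks ranked low, and few of the VEDS male ones had a partner in control female. Both control female peaks overlapped a VEDS male peak, against 95% of that whole list. Of the VEDS male peaks 2 of 11 (18.2%) overlapped a control female peak, against 47.6% of that list. The VEDS male share moved with the bounds and the overlap required, to 28.6% with no flanks, 36.8% with flanks of 200 kb and 9.09% where the summit had to lie inside the other peak. Overlap depended on rank. In 5 equal groups of the VEDS male list by -log10 q, from the top, 97.6%, 75.1%, 39.6%, 18.1% and 7.52% of peaks overlapped. The window peaks fell 1, 1, 0, 4 and 5 into these groups, for which these shares give 2.83 overlaps beside the 2 found. Of the 9 VEDS male peaks without a partner, 8 were thus in the lowest 2 groups. With the VEDS male list cut to the length of the control female list by rank, each list had 2 window peaks and shared 1, the *Col5a2* start. The peak kept in VEDS male alone was the one at -24.36 kb, and the one kept in control female alone was the *Col3a1* intron.

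**Figure D4:**
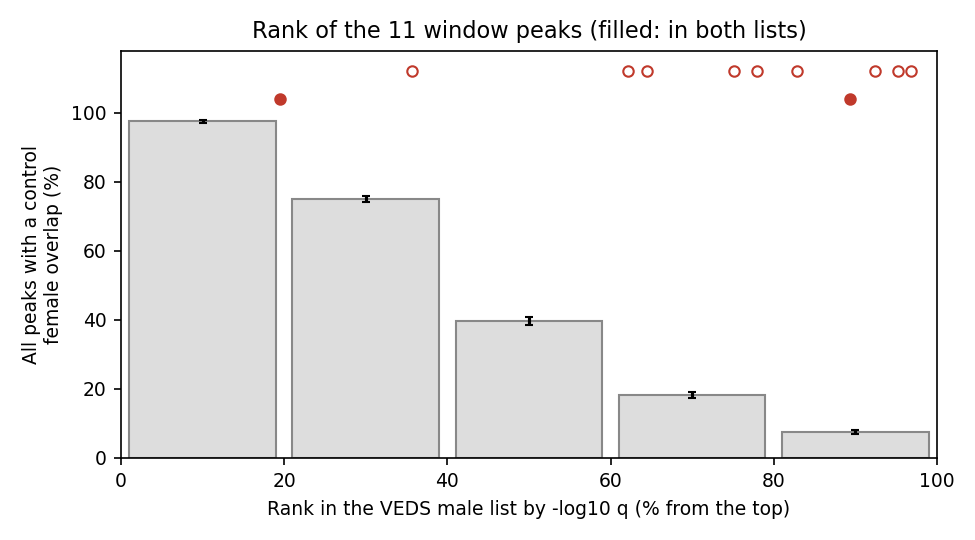
Share of all VEDS male peaks with a control female overlap (y axis, %; grey bars with 95% Wilson intervals) in 5 groups by rank (x axis, % from the top by -log10 q). Points above the bars show the ranks of the 11 window peaks, filled for the 2 with an overlap; 9 of the 11 lie in the lowest 2 groups.

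Motif matches were counted in the 300 bp around each summit, on both strands, for 17 families. AP-1 sites (TGACTCA), bound by JUN and FOS dimers, were in 4 of the 11 VEDS male windows against 11.6% of all windows of the list. These were the peaks at +1.51 kb, +47.89 kb, -13.67 kb and -24.36 kb. The match lay inside the listed peak in only 2, those at +47.89 kb and -24.36 kb, 45 and 28 bp from the summit. These are the 2 window peaks with 93.2% of their bases masked as repeats. The share of 11.6% is for 300-bp windows, not for listed peaks. Among VEDS male peaks farther than 1000 bp from a coding start, 14.7% had AP-1, against 4 of the 9 window peaks there. Both control female windows lacked it, against 11.6% of that list.

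CTCF, which anchors chromatin loops, had 1 match, at +2.59 kb in *Col3a1* and 15 bp from the summit, against 3.12% of VEDS male windows. RUNX sites (TGTGGT) were in 3 (16.6%), CCAAT boxes in 3 (33.7%) and TATA sequences (TATAAA) in 4 (9.79%). A TATA match lay inside the listed peak only at +2.59 kb and -13.67 kb. For RUNX this held only at +2.59 kb and -24.36 kb, and for CCAAT only at +1.51 kb and -24.36 kb. TEAD (CATTCC, 19%), the GC box (GGGCGG, 29.7%), C/EBP (TTGCNNAA, 11.9%) and FOX (TGTTTAC, 3.34%) were each in 1. The C/EBP matches lay outside the listed peak. The FOX match lay in the *Col5a2* start region, in the window of both lists, against 3.15% of control female windows. It lay inside the listed peak in VEDS male only.

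No VEDS male window held a match to MEF2 (5.79% of the list), the SRF CArG box (3.09%), CRE (TGACGTCA, 1.77%), ETS (CCGGAAG, 7.28%), the ZEB E-box (CACCTG, 15%) or SMAD (GTCTAGAC, 0.348%). Nor did any hold a pair of inverted sites of NFI (TTGGC, spacer 5, 0.0556%) or of steroid receptors (GNACA, spacer 3, 1.1%). On the other strand CCAAT reads ATTGG, which shares letters with the NFI site. In the window peaks no match of one family overlapped a match of another. With 11 windows, an absence says only that these letters are not there. In the 250 bases before the *Col3a1* start, a TEAD match lay at -168 (14.7% of 32851 RefSeq promoters hold one) and TATAAA at -117 (13.6%).

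Among the 11 fibrillar collagen genes, which encode the chains of types I, II, III, V, XI, XXIV and XXVII, 5 had a control female promoter peak and 7 a VEDS male one. Of all 21938 protein-coding genes, 46.5% and 57.4% had one. In the VEDS female and control male lists none had, against 1.44% and 1.47% of all genes. *Col3a1* had the lowest CpG ratio of the list. Its VEDS male pileup of 16 was below those of *Col1a1* (49) and *Col1a2* (48), which encode type I collagen, and of *Col5a1* (41) and *Col5a2* (33), which encode type V. *Col5a3* had 11 and *Col27a1* 16. Ranked by -log10 q, the VEDS male order differed from that by pileup. From the top of the list, *Col1a2* stood at 15.5%, *Col5a2* 19.5%, *Col1a1* 24%, *Col5a1* 42.6%, *Col3a1* 64.5%, *Col5a3* 81.4% and *Col27a1* 92.1%. In control female the pileups were 21 at *Col1a1*, 14 at *Col1a2*, 20 at *Col5a1*, 10 at *Col5a2* and 9 at *Col27a1*. *Col2a1*, *Col11a1*, *Col11a2* and *Col24a1*, known from cartilage and bone, had none. Peak heights of one library can be set side by side between genes, but not read as expression.

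**Figure D5:**
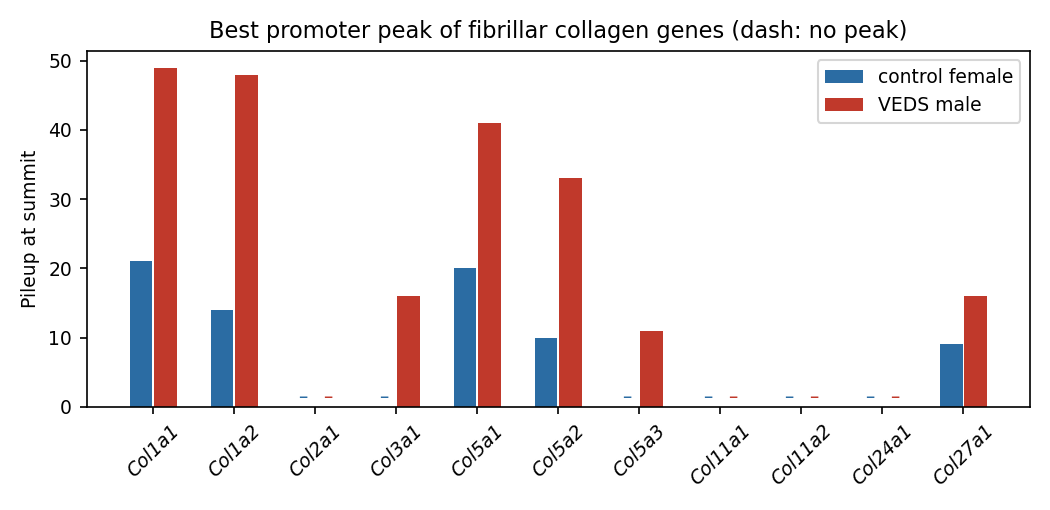
Pileup at the summit of the highest ranking promoter peak (y axis, reads) of the 11 fibrillar collagen genes in control female and VEDS male; a dash marks no peak. The order in VEDS male runs from *Col1a1* (49) to *Col5a3* (11), with *Col3a1* and *Col27a1* at 16.

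Judged by the number of peaks from 3000 bp upstream to the gene end over the 4 lists, *Col3a1* (1 in control female and 4 in VEDS male) matched 166 other genes. Those nearest in the rank of their best peak were *P2ry6*, *Adamtsl2* and *Fam19a1*. *Col5a2* (1 and 2) matched 1619 genes, nearest *Clk1*, *Gem* and *Gramd1a*. Likeness over 4 lists, 2 of them at 0, describes little more than how many peaks a gene has.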

How the data were processed

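The 4 ATAC-seq libraries were made from aortic nuclei of P60 mice, with 2 mice pooled in each, and were grouped by the genotype in the sample annotations. Per the study's methods, the authors used mm10 as the genome, a duplicate filter that reads the barcodes, a correction for Tn5 cutting, MACS2 for narrow peaks, and the ENCODE blacklist as a filter. The aligner is not given in the sources used here. The deposited lists, 1 per library, give for each peak a score (10 times -log10 q without decimals), the fold enrichment (a ratio to the background near the peak in that library), and a p-value and q-value as -log10, all computed by the authors.

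The pileup was recovered as the whole number giving both the deposited fold enrichment (pseudocount of 1) and the -log10 p, within 0.2%, for 99.3% to 99.9% of peaks in each list. Where several whole numbers fitted, the closest was taken. The method was checked on simulated data made with the same formulas. That check covers the recovery step and cannot show that the deposited values follow these formulas. The lowest background of a list stood for its depth. Total reads per library were not used here, and a lack of a peak was not read as closed chromatin. Annotation used GENCODE vM21 (GRCm38, which mm10 is), ChIPseeker's order of categories and promoters within 3000 bp of a TSS, and overlap was at least 1 bp. Intervals were Wilson for shares and exact for pileups, and cover counting error only. Motifs were fixed consensus sequences.

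Genes named were *Col3a1* and *Col5a2*, all genes of the window, the nearest coding gene beyond each end, 11 fibrillar collagens, marker genes and the 3 genes most like each member. The members, lists and motifs were chosen with earlier results of these data known. Alternatives were thresholds of 5 and 10 in -log10 q, a limit on masked bases, equal list lengths, other flanks, overlaps, promoter limits, motif windows and rankings, and leaving out each library. The software was numpy 2.4.6, pandas 2.3.3, scipy 1.17.1, pysam 0.24.0 and matplotlib 3.10.9 under Python 3.11.15.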

Additional observations from a re-analysis of the deposited data

Results flagged for a closer look

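The number of window peaks differed between genotypes in opposite directions in the 2 sexes. VEDS minus control was -2 in females (0 against 2 peaks) and 11 in males (11 against 0). The counts of 0 stand beside 0.0706 at genome density in VEDS female and 0.175 in control male. Each value compares 1 library with 1, and the difference was not tested. In both sexes the library with window peaks was the one with the longer list, 21176 against 504 peaks in females and 41444 against 1236 in males, and the part of list length in this result was not tested.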

How the results depend on the processing

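Of 121 recomputed values for 25 results, 83 stayed within the limits set for each and 38 moved. The density of the window relative to the genome changed sides of 1 in both long lists. At a -log10 q of at least 5, window peaks were 1 in control female and 6 in VEDS male, with 1 and 6 merged regions and a control female density of 0.433 of the genome's. At 10 they were 0 and 2, with 0 and 2 merged regions, densities of 0 and 0.616, an overlap share of 0% in VEDS male, and 1 and 4 fibrillar genes. With the VEDS male list at control female length, that list had 2 window peaks, 2 merged regions, an overlap share of 50%, a density of 0.658 and 4 fibrillar genes. With every list at 504 peaks, window peaks, merged regions, densities and fibrillar genes were 0 in both long lists. With flanks of 200 kb there were 7, 1 and 19 peaks in control female, control male and VEDS male, the control female density was 1.53 and the VEDS male overlap share 36.8%. With no flanks VEDS male had 7 peaks and an overlap share of 28.6%, and the control female density was 1.35. With the summit inside the other peak the VEDS male share was 9.09%. Promoter peaks within 1 kb in VEDS male were 2 in place of 5, and AP-1 within the whole peak 2 in place of 4. The *Col5a2* start in VEDS male was 9.27% from the top when ranked by fold enrichment. Leaving out 1 library gave 0 to 2 merged control regions (0 without control female) and 0 to 11 merged VEDS regions (0 without VEDS male). No overlap share was obtained where no peak of a list was left, in control female at a -log10 q of 10 and in both lists at 504 peaks. No paired test was made. The labels give no replicate numbers, and pairing by sex would set 1 library against 1 in each sex. A pileup near 5 in control female and 7 in VEDS male, the smallest called, limits what either list can show.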
